A study of Mus musculus with 225 samples.

Results

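Bone morphogenetic protein (BMP) signals and their inhibitors were followed in single cells of the mouse forelimb bud. The genes were 5 ligands, *Bmp2*, *Bmp4*, *Bmp5*, *Bmp7* and *Gdf5*, and 3 antagonists, *Grem1*, *Nog* and *Bmper*, chosen by name. All 8 were among the 23165 genes of the raw count table. The normalized table, which holds 10948 genes, listed 7 of them and had no row for *Grem1*.

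BMP and growth differentiation factor (GDF) ligands are secreted dimers that bind pairs of type I and type II serine/threonine kinase receptors, which phosphorylate SMAD proteins and thereby switch on genes such as the *Id* and *Msx* families. Secreted antagonists bind the ligands outside the cell and keep them from the receptors. In the limb this balance bears on digit number, cartilage condensation, joint formation and the death of cells between the digits.

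Cells came from pooled forelimbs of *Hoxd11::GFP* heterozygous embryos at E12.5, on a mixed C57Bl6CBAF1 background, that were dissected into autopod (the future hand) and zeugopod (the future forearm). A tau-GFP sequence was knocked into *Hoxd11* in all of them, and cells among the brightest 20% for GFP were sorted, so both tissues are *Hoxd11*-lineage cells and not whole limb segments. Single cells were captured on a Fluidigm C1 system and polyA RNA was sequenced in 3 runs. Of 225 captured cells the authors left out 26. The retained cells were 76 autopod cells, 59 in run NXT0072 and 17 in NXT0143, and the zeugopod cells, 58 in NXT0142 and 65 in NXT0143.

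The retained cells held from 186271 to 9437447 reads on genes (median 2830024.5 in autopod and 3233736 in zeugopod). The labels name no embryo for a cell, so each tissue was 1 pooled sample. No p-value or standard error was computed, and the intervals given are exact 95% intervals that cover counting error only. No cell held the muscle, epithelial, endothelial or macrophage marker list. The blood list could not be read, since it needed 3 genes and only 1 of its 4 was in the table. The cartilage list was held by 35 autopod and 38 zeugopod cells, and the tendon list by 0 and 17. In 49 cells (24.6%) both *Xist* and Y-linked reads were present (at least 5 each), although a cell of 1 embryo should hold 1 kind; no doublet caller was run. At least 2 members had 5 or more reads in 28.6% of these 49 cells and in 27.3% of the other 150.

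A gene was called on in a cell at 5 or more reads. By that criterion every member was off in most cells of both tissues. *Bmp7* was on in the largest share of retained cells (40, 20.1%), followed by *Bmp4* (35, 17.6%), *Bmp2* and *Gdf5* (32 each, 16.1%), *Nog* (23, 11.6%), *Bmp5* (14, 7.04%), *Bmper* (13, 6.53%) and *Grem1* (9, 4.52%). The intervals of the neighbours in this order overlapped.

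Where a member was on, it was often abundant. On the normalized scale, which is divided by gene length and so can be compared between genes, the median level among cells with the gene on was highest for *Bmper* (398), then *Bmp4* (268), *Bmp5* (183), *Gdf5* (94.9), *Nog* (63.1), *Bmp7* (62.1) and *Bmp2* (54.1). The middle 50% of cells with the gene on overlapped between all 7 of these genes.

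**Figure D1:**
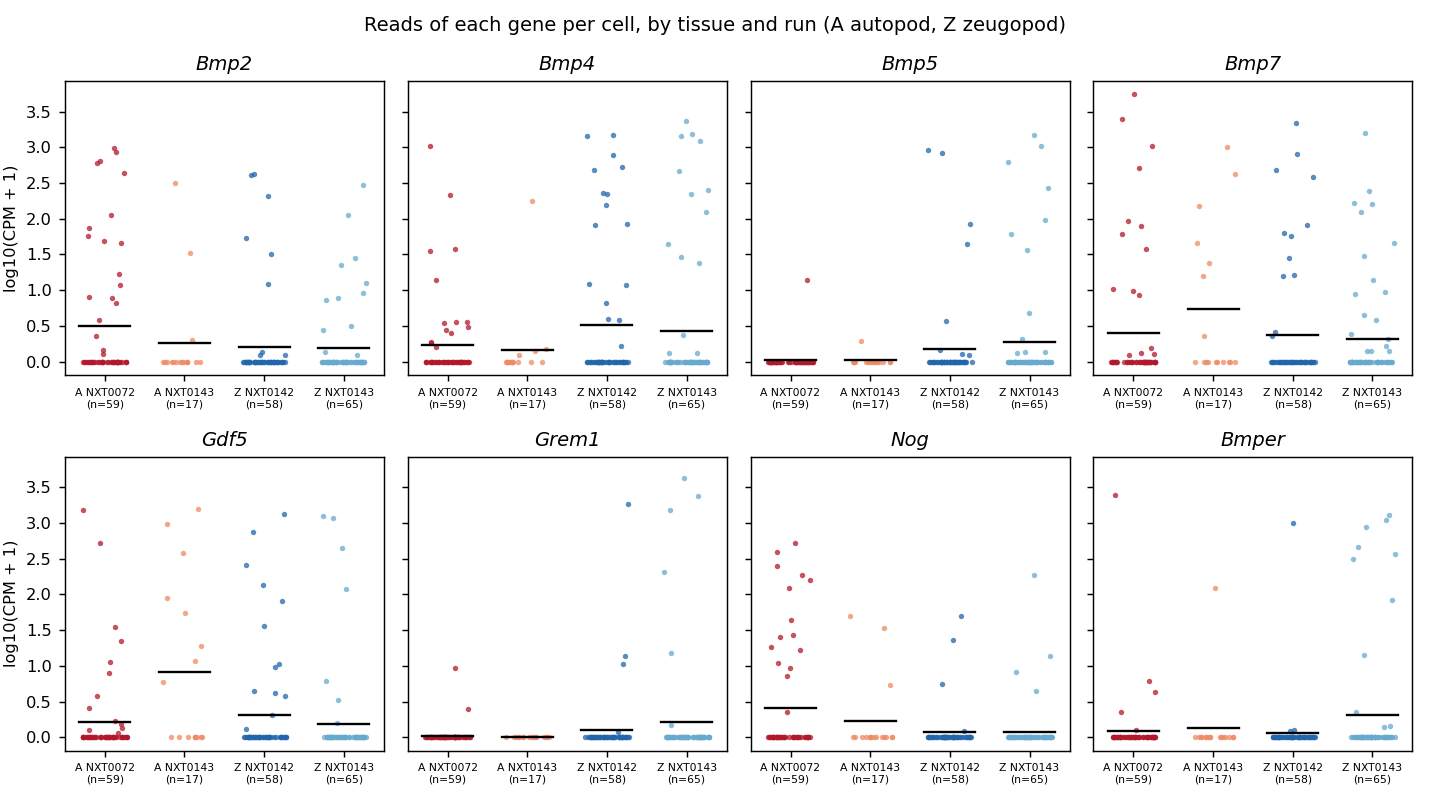
Each point is 1 retained cell, with log10(CPM + 1) of the named gene on the vertical axis (CPM, reads per 1000000 reads on genes) and the tissue and run on the horizontal axis; black lines are means over cells. Most cells lie at 0 for each gene and a few lie above 2, so the means rest on few cells.

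*Bmp2* (ENSMUSG00000027358, GRCm38 chr2:133552159-133562885, plus strand) encodes a ligand of digit and interdigit mesenchyme. It was on in 16 of 76 autopod cells (21.1%, interval 12.5 to 31.9) and 16 zeugopod cells (13.01%, 7.62 to 20.3). Among the autopod cells with it on, the lowest, median and highest levels were 6.75, 65.2 and 984 CPM, and among the zeugopod cells 1.80, 24.3 and 427 CPM. The ranges of the tissues overlapped, and 1 autopod cell gave 29.1% of all autopod *Bmp2* reads.

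*Bmp4* (ENSMUSG00000021835, chr14:46383520-46390669, minus strand) encodes a ligand closely related to that of *Bmp2*. It showed the opposite order of the tissues, with 9 autopod cells (11.8%, 5.56 to 21.3) and 26 zeugopod cells (21.1%, 14.3 to 29.4) on. Its levels in these cells ran from 2.09 to 1043 CPM (median 34.5) in autopod and from 2.87 to 2295 CPM (median 222) in zeugopod. At 1 read or more, the share of autopod cells became 23.7% and that of zeugopod cells 24.4%, so the tissues differed in cells with 5 or more reads and hardly in cells with any.

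*Bmp5* (ENSMUSG00000032179, chr9:75775364-75900310, plus strand), a ligand known for its part in cartilage and skeletal elements, was the ligand most confined to 1 tissue. It was on in 1 autopod cell (1.32%, 0.0333 to 7.11), at 13.04 CPM, and in 13 zeugopod cells (10.6%, 5.75 to 17.4), from 2.74 to 1469 CPM with a median of 95.1. Both zeugopod runs held such cells, 5 of 58 in NXT0142 and 8 of 65 in NXT0143, against 1 of 59 and 0 of 17 in the autopod runs. For the 0 of 17 the limit set by 3 counts is 17.6%.

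*Bmp7* (ENSMUSG00000008999, chr2:172868012-172940321, minus strand), a ligand of limb mesenchyme and ectoderm, was on in 17 autopod cells (22.4%, 13.6 to 33.4) and 23 zeugopod cells (18.7%, 12.2 to 26.7). Its levels reached 5490 CPM in autopod (lowest 7.59, median 77.5) and 2157 CPM in zeugopod (lowest 1.57, median 57.1). The tissues overlapped in share and in level.

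*Gdf5* (ENSMUSG00000038259, chr2:155941023-155945367, minus strand) encodes the ligand best known as a marker of the forming joint. It was on in 14 autopod cells (18.4%, 10.5 to 28.97) and 18 zeugopod cells (14.6%, 8.91 to 22.1), and the runs did not give the same order. In NXT0143, which holds both tissues, it was on in 7 of 17 autopod cells (41.2%, 18.4 to 67.1) and 6 of 65 zeugopod cells (9.23%, 3.46 to 19.02). In the other runs it was on in 7 of 59 autopod cells (11.9%, NXT0072) and 12 of 58 zeugopod cells (20.7%, NXT0142). The 2 autopod runs thus differed from each other more than the tissues did.

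Among the antagonists, *Nog* (ENSMUSG00000048616, chr11:89300638-89302332, minus strand) stood out. It encodes Noggin, a secreted inhibitor of BMP and GDF ligands that cartilage cells make and joints need. It was on in 16 autopod cells (21.1%, 12.5 to 31.9) and 7 zeugopod cells (5.69%, 2.32 to 11.4). The share was 22.03% (13 of 59, NXT0072) and 17.6% (3 of 17, NXT0143) in the autopod runs. It was 5.17% (3 of 58, NXT0142) and 6.15% (4 of 65, NXT0143) in the zeugopod runs. No zeugopod run reached an autopod run, but the interval of the 3 of 17 (3.80 to 43.4) holds both zeugopod shares. Levels in cells with *Nog* on ran from 4.45 to 517 CPM (median 37.9) in autopod and from 3.43 to 188 CPM (median 12.9) in zeugopod.

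*Grem1* (ENSMUSG00000074934, chr2:113746164-113758646, minus strand) encodes Gremlin, the antagonist that maintains signalling between the posterior mesenchyme and the apical ridge. It was on in 1 autopod cell, at 8.21 CPM, and in 8 zeugopod cells (6.50%, 2.85 to 12.4), from 9.66 to 4224 CPM with a median of 853. The zeugopod cells fell in both runs, 3 of 58 in NXT0142 and 5 of 65 in NXT0143, but 1 cell supplied 51.04% of the zeugopod reads.

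*Bmper* (ENSMUSG00000031963, chr9:23223076-23485200, plus strand) encodes an extracellular BMP-binding protein that can inhibit or promote signalling. It was on in 4 autopod cells (5.26%, 1.45 to 12.9) and 9 zeugopod cells (7.32%, 3.40 to 13.4). A single autopod cell, at 2430 CPM, gave 96.3% of the autopod reads. Of the 9 zeugopod cells 8 were in NXT0143 (12.3%, 5.47 to 22.8) and 1 in NXT0142 (1.72%, 0.0436 to 9.24). The shares of these runs of 1 tissue lay further apart than those of the tissues, though their intervals overlapped.

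**Figure D2:**
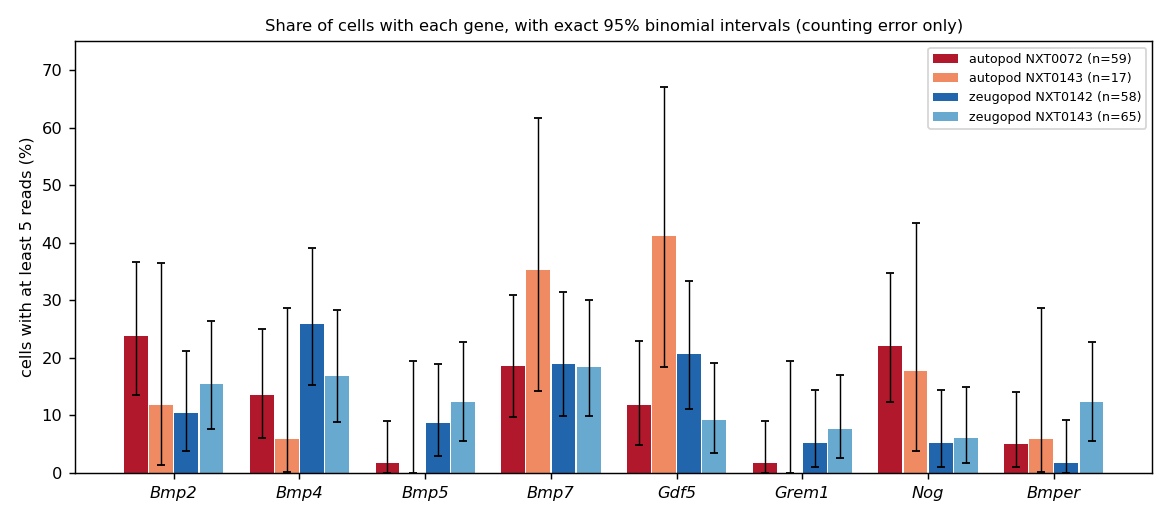
Bars give the percentage of cells with at least 5 reads of each gene (vertical axis) in the 4 groups of tissue and run, and whiskers the exact 95% binomial intervals, which cover counting error only. *Nog* is higher in both autopod runs than in either zeugopod run, *Bmp5* and *Bmp4* are higher in the zeugopod runs, and *Gdf5* is highest in the autopod cells of NXT0143 (41.2%).

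The tissues were then compared by the mean of log2(normalized value + 1) over cells, the scale on which the authors worked. *Nog* alone of the 7 members exceeded a difference of 1, at 1.92 in autopod against 0.88 in zeugopod, a difference of 1.04. Of all 10948 genes, 2.83% were higher in autopod by at least 1 and 6.26% higher in zeugopod. Among the 6050 genes on in fewer than 25% of the cells of both tissues, as *Nog* is, 0.215% and 0.496% were. That group has no lower limit, and *Nog*, on in 21.1% of autopod cells, lies near its upper limit. It is therefore not a background of genes detected as often as *Nog*. *Bmp2* (difference 0.81), *Bmp7* (0.49) and *Gdf5* (0.42) were higher in autopod by less than 1, and *Bmp4* (-0.74), *Bmp5* (-0.71) and *Bmper* (-0.27) were lower. After thinning to 500000 reads a cell, on the log2(CPM + 1) scale, *Nog* (1.03) and *Bmp4* (-1.01) passed, beside 2.7% of genes higher in autopod and 9.88% higher in zeugopod. *Grem1*, on the log2(CPM + 1) scale of all reads, was also lower in autopod (-0.46).

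Run was tied to tissue in 2 of the 3 runs, so the difference was taken again within NXT0143 and between NXT0072 and NXT0142, where run and tissue cannot be told apart. Within NXT0143, 10.9% of all genes were higher in autopod by at least 1 and 5.17% higher in zeugopod; between NXT0072 and NXT0142 the shares were 3.27% and 12.3%. *Nog* was 0.59 higher in autopod within NXT0143 and 1.18 higher between the other runs. *Bmp4* (-0.74 and -0.90) and *Bmp5* (-0.84 and -0.53) were lower in autopod in both comparisons. In both comparisons at once 0 of the 7 members passed in either direction, beside 0.923% (autopod) and 1.9% (zeugopod) of all genes. *Bmp2* (0.13 and 0.93) and *Bmp7* (1.43 and 0.11) kept their sign with very unequal sizes.

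*Gdf5* changed sign, from 2.54 higher in autopod within NXT0143 to 0.38 lower between the other runs (-0.38), and so did *Bmper* (-0.44 and 0.08). The joint and cartilage ligand therefore had no single direction between tissues here.

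**Figure D3:**
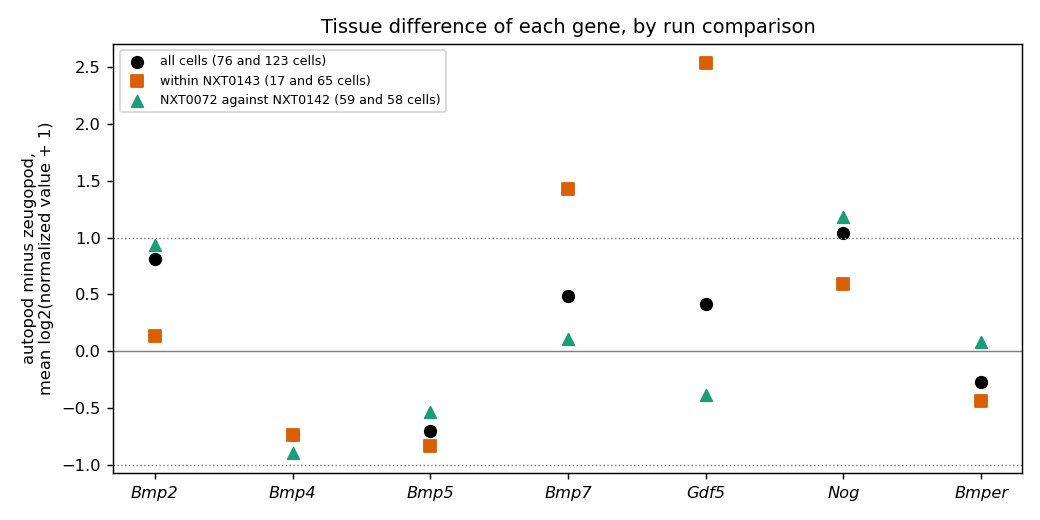
The vertical axis is the mean of log2(normalized value + 1) in autopod cells minus that in zeugopod cells, for all cells (circles), within run NXT0143 (squares) and for NXT0072 against NXT0142 (triangles); dotted lines mark differences of 1 and -1. The 3 symbols of *Nog*, *Bmp4* (whose circle lies under its square at -0.74) and *Bmp5* lie on 1 side of 0, and those of *Gdf5* spread from -0.38 to 2.54.

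The sequence before the transcription start was available from RefSeq (GRCm38.p6) for 4 of the 8 members, *Bmp4*, *Bmp5*, *Grem1* and *Bmper*. The 250 bases upstream of *Bmp4* (chr14:46390670-46390919, minus strand) and *Bmp5* (chr9:75775115-75775364, plus strand) are shown because these ligands shared the zeugopod side of the comparison. As described below, few zeugopod cells had both on, with an interval that holds the share in the other cells.
Bmp4: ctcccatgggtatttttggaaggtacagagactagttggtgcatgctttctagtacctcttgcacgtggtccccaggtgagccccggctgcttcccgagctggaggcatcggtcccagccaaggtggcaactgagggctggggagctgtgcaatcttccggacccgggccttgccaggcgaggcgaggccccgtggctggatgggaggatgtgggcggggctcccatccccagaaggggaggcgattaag
Bmp5: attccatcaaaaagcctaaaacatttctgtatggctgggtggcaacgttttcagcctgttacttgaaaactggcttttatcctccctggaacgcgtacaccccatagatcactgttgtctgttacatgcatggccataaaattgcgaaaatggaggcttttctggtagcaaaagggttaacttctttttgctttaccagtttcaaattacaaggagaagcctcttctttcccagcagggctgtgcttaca
The sequences are printed from 5′ to 3′ on the strand of the gene. That of *Bmp4* had 63.2% G and C with 11 CG pairs, and that of *Bmp5* 42.8% with 4, against medians of 52.4% and 6 over 32851 promoters. Motifs were searched on both strands in the exact letters given below. None of these letter strings matched in these windows, so no letters are in capitals. The TATA box was searched as TATAAA, which 12.4% of all promoters of that length hold. The core bound by HOX13 proteins was searched as CAATAAA (4.20% of promoters). The GC-rich SMAD box was searched as GGCGCC (9.59% of promoters). An E-box, the kind of site that basic helix-loop-helix proteins bind, was searched only in the form CAGCTG (13.001% of promoters). Other forms of the E-box were not searched, so their absence is not shown. None of these motifs holds the letters of another.

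Which members shared cells was asked next. In autopod 23 of 76 cells had no member on, 32 had 1, 18 had 2, 2 had 3 and 1 had 4. In zeugopod 44 cells had none, 45 had 1, 29 had 2, 3 had 3 and 2 had 4. The most frequent combinations with a member on were of a single gene: *Nog* alone in 9 autopod cells, *Bmp2* alone in 7 and *Bmp7* alone in 7, and in zeugopod *Bmp4* alone in 13, *Gdf5* alone in 9 and *Bmp7* alone in 8.

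The number of members on moved with the number of genes detected, most of all in autopod. The median cell with no member on had 2694 genes with a read in autopod, against 3727 with 1 member and 4365 with 2 or more. In zeugopod the medians were 3833.5, 4012 and 4023. The part of this in the counts of shared cells was not tested beyond thinning each cell to 500000 reads.

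*Bmp5* and *Bmp7* were the ligand pair with the most shared cells in zeugopod. There 7 of the 13 *Bmp5* cells also had *Bmp7* on (53.8%, 25.1 to 80.8), against 14.5% of the 110 cells without *Bmp5* (8.55 to 22.5). Put the other way, 30.4% of the 23 *Bmp7* cells had *Bmp5* on. The pair was shared by 2 cells of NXT0142 and 5 of NXT0143, by 6 of the 99 cells without both *Xist* and Y-linked reads, and, at 1 read or more, by 10 thinned cells. At 20 reads or more only 3 cells shared it, and in autopod 0 of 76 did.

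*Bmp2* and *Bmp4* were also found together. In zeugopod 6 of 16 *Bmp2* cells had *Bmp4* on (37.5%, 15.2 to 64.6), against 18.7% of the rest, with 3 such cells in each run. In autopod it was 3 of 16 (18.8%, 4.05 to 45.6) against 10.0%. The intervals overlapped in both tissues.

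*Bmp4* was found with the other ligands in few zeugopod cells. There 2 of 26 *Bmp4* cells had *Bmp7* (7.69%, 0.946 to 25.1), against 21.6% of the other cells. *Gdf5* was on in 1 of the 26 (3.85%, 0.0973 to 19.6), against 17.5%, and *Bmp5* in 1 of the 26, against 12.4%. Each of these intervals holds the share in the other cells. In autopod *Bmp7* was on in 2 of 9 *Bmp4* cells (22.2%, 2.81 to 60.01) against 22.4%, and *Gdf5* in 1 of 9 against 19.4%. *Bmp2* and *Gdf5* shared 0 zeugopod cells (limit 2.44% at 3 counts) but 3 of 76 autopod cells. *Bmp7* and *Gdf5* shared 4 autopod and 5 zeugopod cells.

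Of ligands and antagonists, *Gdf5* and *Nog* were found together in zeugopod, where 4 of 7 *Nog* cells had *Gdf5* on (57.1%, 18.4 to 90.1), against 12.1% of the others. The pair was shared by 2 cells in each zeugopod run, but at 20 reads or more by only 1 of 5 *Nog* cells. In autopod 2 of 16 *Nog* cells had *Gdf5* (12.5%, 1.55 to 38.3), against 20.0% of the others, so the tissues gave opposite orders. *Grem1* met *Bmp4* in 3 of its 8 zeugopod cells (37.5%, 8.52 to 75.5), against 20.0% of cells without it.

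No cell had 5 or more reads of both *Bmp4* and *Nog*. That was 0 of 9 *Bmp4* cells in autopod (upper bound 33.6%), where 23.9% of the other cells had *Nog*, and 0 of 26 in zeugopod (upper bound 13.2%), where 7.22% did. The absence rests on that threshold. One autopod cell held 413 *Bmp4* reads and 4 *Nog* reads, and both genes were on in it at a normalized value of at least 5. A second held 3 *Bmp4* and 59 *Nog* reads.

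Taking all ligands and antagonists, 8 of 42 autopod cells with a ligand also had an antagonist (19.05%, 8.60 to 34.1), against 11 of 34 cells without a ligand (32.4%, 17.4 to 50.5). In zeugopod it was 16 of 72 (22.2%, 13.3 to 33.6) against 7 of 51 (13.7%, 5.70 to 26.3). The order was opposite in the tissues and the intervals overlapped in each. Within NXT0143 it was the same in both, with 25% against 20% in autopod (3 of 12 and 1 of 5 cells) and 32.4% against 16.1% in zeugopod. In NXT0072 the autopod shares were 16.7% and 34.5%, and in NXT0142 the zeugopod shares were 13.2% and 10%. Of the 28 pairs of members, 11 in autopod and 14 in zeugopod had a higher share of 1 gene where the other was on. In neither tissue was this most of the pairs. No count over other gene pairs was made, so these numbers do not show that members share cells more than other genes do. Without the cells that held both *Xist* and Y-linked reads the autopod number was 3 and the zeugopod number 14. *Bmp5* and *Grem1* were then on in 0% of autopod cells, so no autopod pair with either gene could count.

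**Figure D4:**
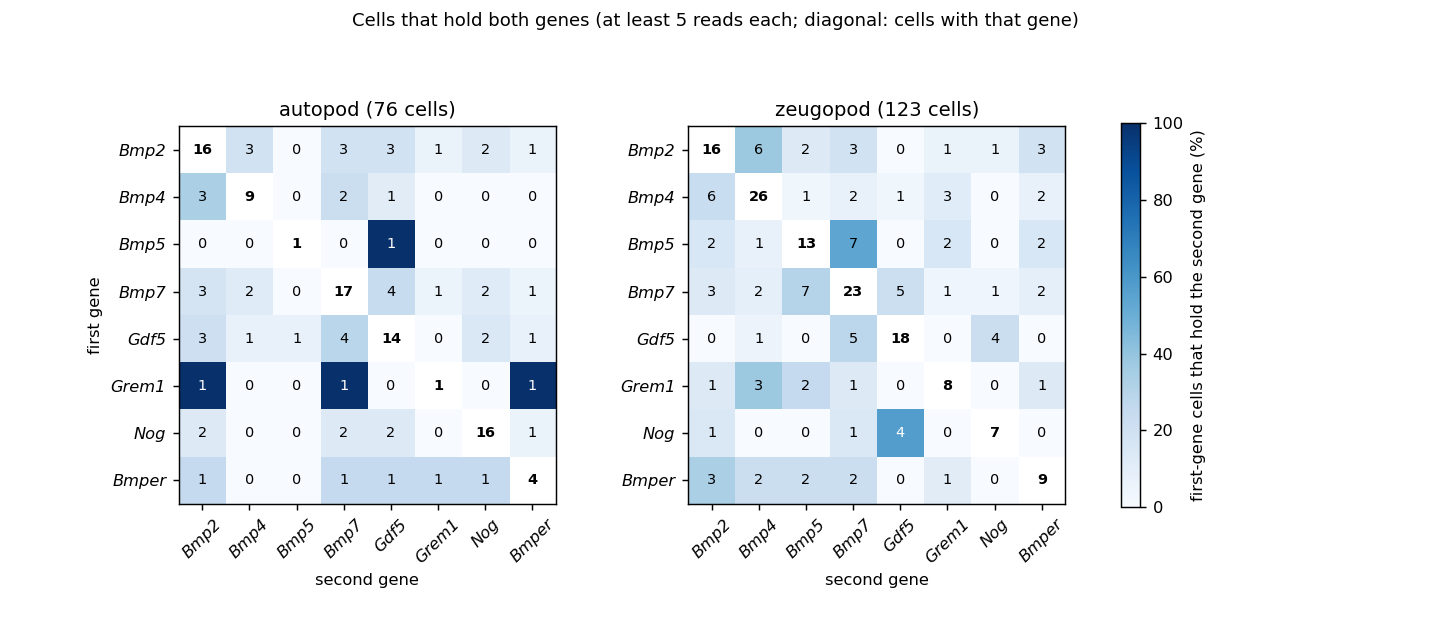
Numbers are cells in which both genes had at least 5 reads, in autopod (left) and zeugopod (right); bold numbers on the diagonal are cells with that gene. Colour is the percentage of cells with the first gene (row) that also hold the second (column); the darkest zeugopod squares are *Nog* with *Gdf5* (4 of 7) and *Bmp5* with *Bmp7* (7 of 13), and the dark autopod squares of *Bmp5* and *Grem1* rest on 1 cell each.

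Cells with a given member differed in the marker genes they held. Members and marker lists were both chosen with earlier results of these data known. *Nog* cells carried the cartilage list, at least 3 of *Sox9*, *Col2a1*, *Acan*, *Col9a1* and *Matn1*, in 13 of 16 autopod cells (81.3%, 54.4 to 95.95) against 36.7% of cells without *Nog* (24.6 to 50.1). The order was the same in zeugopod, with 5 of 7 (71.4%, 29.04 to 96.3) against 28.4%, but there the intervals overlapped. By run it was 12 of 13 and 1 of 3 in autopod, and 2 of 3 and 3 of 4 in zeugopod. No *Nog* cell of either tissue held the cell cycle list (at least 3 of *Mki67*, *Top2a*, *Ccnb1* and *Cdk1*), against 30% of autopod and 19.8% of zeugopod cells without *Nog*. For that list the intervals overlapped in both tissues.

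*Bmp4* and *Bmp2* cells of the autopod showed the opposite order. The intervals of cells with and without the gene overlapped for each list below in *Bmp2* and for the cartilage list in *Bmp4*. The cartilage list was held by 1 of 9 *Bmp4* cells (11.1%) against 50.7% of the others, and by 3 of 16 *Bmp2* cells (18.8%) against 53.3%. The cell cycle list was held by 6 of 9 *Bmp4* cells (66.7%, 29.9 to 92.5) against 17.9%, and by 8 of 16 *Bmp2* cells (50%, 24.7 to 75.3) against 16.7%. The early limb mesenchyme list (at least 2 of *Prrx1*, *Prrx2* and *Twist1*) was held by 9 of 9 *Bmp4* cells against 46.3% of the others, by 12 of 16 *Bmp2* cells against 46.7%, and by 3 of 16 *Nog* cells against 61.7%.

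These autopod cells were mostly from 1 run. In NXT0072 alone the mesenchyme list was held by 8 of 8 *Bmp4* cells and 2 of 13 *Nog* cells, and the cell cycle list by 5 of 8 *Bmp4*, 8 of 14 *Bmp2* and 0 of 13 *Nog* cells. Of all 59 autopod cells of NXT0072, 62.7% held the mesenchyme list and 27.1% the cell cycle list. In the autopod cells of NXT0143 these shares were 17.6% and 11.8%. In zeugopod the cell cycle list was held by 6 of 26 *Bmp4* cells (23.1%) against 17.5%, with overlapping intervals, while the cartilage list was again less frequent, in 4 of 26 (15.4%, 4.36 to 34.9) against 35.1% (25.6 to 45.4). Autopod cells with *Bmp2* or *Bmp4* had more genes detected than those without (medians 4226 against 3434.5 and 4300 against 3540), and *Nog* cells had fewer (3422.5 against 3712.5).

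*Gdf5* cells held the cartilage list in 11 of 18 zeugopod cells (61.1%, 35.7 to 82.7) against 25.7% (17.7 to 35.2), and in 8 of 14 autopod cells (57.1%) against 43.5%. The joint list (at least 2 of *Erg*, *Wnt9a*, *Wnt4* and *Osr2*) was held by 3 of 14 *Gdf5* cells in autopod against 1 of 62, and by 3 of 18 in zeugopod against 7 of the others (6.67%). Most *Gdf5* cells thus lacked the joint list. *Bmp5* cells of the zeugopod held the cartilage list in 7 of 13 (53.8%, 25.1 to 80.8) against 28.2%.

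The interdigit list (at least 2 of *Aldh1a2*, *Msx2* and *Rarb*) was held by 13 autopod and 0 zeugopod cells. It was found in 6 of 17 autopod *Bmp7* cells (35.3%, 14.2 to 61.7) against 7 of 59 others (11.9%, 4.91 to 22.9), 3 of them in each run. *Msx2* is itself a BMP-responsive gene. *Bmp7* cells of the autopod also had more genes detected (median 4504 against 3455).

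**Figure D5:**
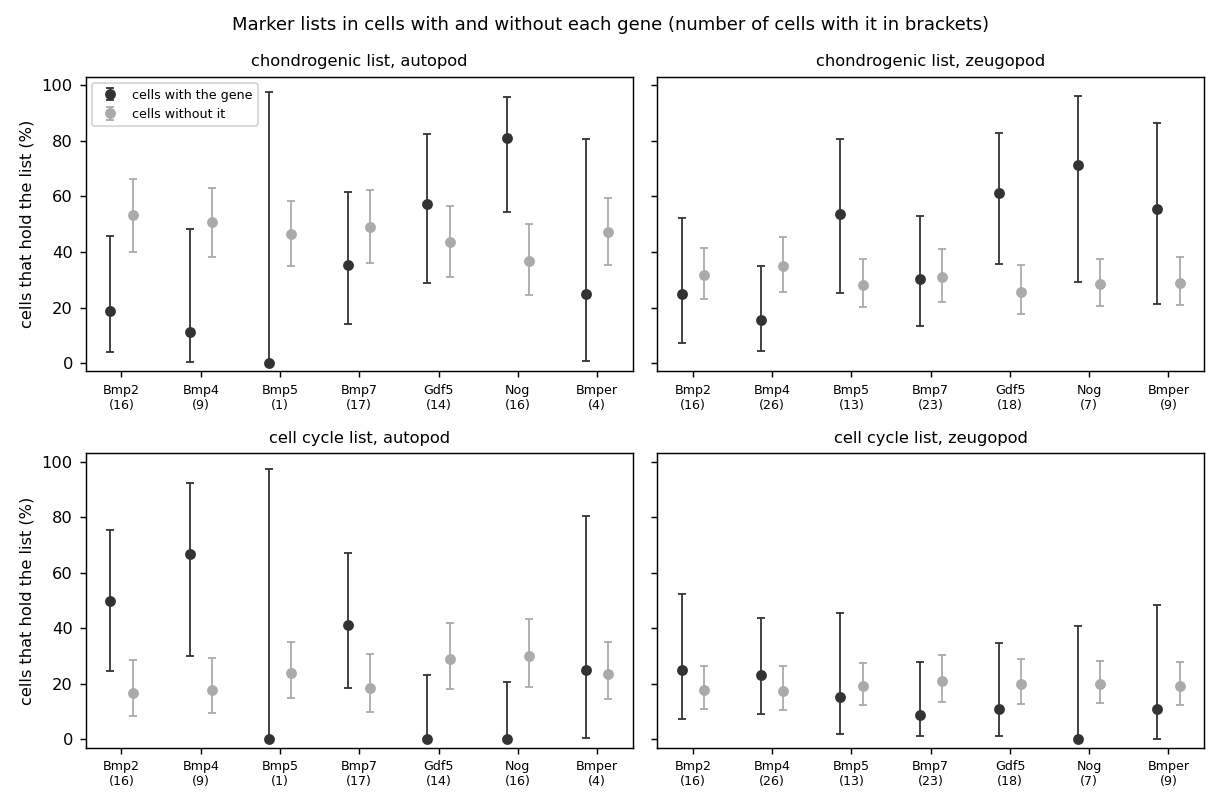
Dark points give the percentage of cells with each gene that hold the cartilage (chondrogenic) or cell cycle list and pale points that of cells without the gene, with exact 95% binomial intervals for counting error. *Nog* lies above its pale point for cartilage in both tissues and at 0 for cell cycle, and *Bmp2* and *Bmp4* show the reverse in autopod.

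Most autopod cells with a member also had *Hoxd13* on, a gene of the autopod: 16 of 16 *Bmp2* cells, 9 of 9 *Bmp4* cells, 16 of 17 *Bmp7* cells and 15 of 16 *Nog* cells, beside 12 of 14 *Gdf5* cells. The paper describes *Hoxd13* as the gene expressed most often in autopod cells. No share in cells without each member is set beside these counts, so they do not set cells with a member apart. In zeugopod 0 cells with a member had *Hoxd13* on. *Hoxd11* was on in 3 of 8 zeugopod *Grem1* cells (37.5%, 8.52 to 75.5) against 82.6% of the other cells (74.4 to 89.04), the lowest share of any member there. These genes were looked at after other values of the members had been seen.

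The genes most like each member were sought by Pearson's r of log2(normalized value + 1) over the retained cells, after the mean of each tissue and run was removed, among genes on in at least 10% of cells. The coefficients were low, at most 0.47, and are descriptions over cells that share libraries and depth. For *Nog* the first gene was *Wwp2* (r 0.41), a ubiquitin ligase gene that hosts a cartilage microRNA, on in 20 of the 23 *Nog* cells, followed by *Mcat* and *Pcsk6*, which were not among the first 3 on the CPM scale. For *Gdf5* they were *Sfrp2*, a secreted WNT modulator (r 0.32, 28 of 32 *Gdf5* cells), the cartilage collagen gene *Col9a2* and *Enpp2*.

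For *Bmp4* the genes were *Tanc2* (r 0.43), the WNT inhibitor gene *Dkk2* (0.40) and *Shox2* (0.38), a homeobox gene of the proximal limb. Such genes were picked by r over these same cells, so the shares below repeat that choice and are not separate support. In zeugopod *Dkk2* was on in 17 of 26 *Bmp4* cells (65.4%, 44.3 to 82.8) against 16 of 97 others (16.5%, 9.73 to 25.4), and *Shox2* in 22 of 26 against 51 of 97. *Shox2* was on in 0 of 76 autopod cells. For *Bmp5* the first gene was *Thoc5* (r 0.47), a component of the RNA export complex THO, on in 9 of 13 zeugopod *Bmp5* cells against 12 of 110 others. For *Bmp7* they were *Pycard*, *Timm8a1* and *Agfg1*, of which 1 (*Pycard*) was kept on the CPM scale, for *Bmper* *Rfng*, *Rnf24* and *Fbxo42*, and for *Bmp2* *Naa50*, *Rab11b* and *Hnrnpl*, none of which was among the first 3 for *Bmp2* on the CPM scale. For *Grem1*, on the CPM scale, they were *Cbr4*, *Cul4a* and *Csgalnact1*.

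The rest of the pathway was read on the same scale of mean log2(normalized value + 1), beside the 2.83% of all genes higher in autopod by at least 1 and the 6.26% higher in zeugopod. With genes restricted to those on in 25% or more of autopod or of zeugopod cells, the shares were 6.06% and 13.4%. Of 6 other ligand genes in the normalized table none differed by 1, with *Bmp3* the furthest apart (-0.73, on in 0 of 76 autopod and 14 zeugopod cells) and *Bmp8b* at 0.07. *Gdf11*, on in 48 autopod and 60 zeugopod cells, was at -0.10, but at 2.36 within NXT0143 and -1.56 between the other runs. Of 8 other antagonists, *Twsg1*, which helps BMPs bind chordin, was 1.67 higher in autopod, and *Nbl1* (-1.71) and *Fstl1* (-2.18) were lower. *Nbl1* kept its sign in both run comparisons, whereas *Fstl1* did not (0.24 within NXT0143). *Chrdl1* was at -0.56. The median of this list was -0.54, against -0.04 over all genes.

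The receiving side had no single direction, with list medians of 0.58 for receptors, 0.63 for *Smad* and *Smurf* genes and -1.04 for co-receptors. Of 7 receptor genes *Bmpr2*, the main type II receptor, was higher by at least 1 (1.04), and *Bmpr1b* (0.82), a type I receptor that GDF5 binds, and *Acvr2a* (0.58) were higher by less. Of 7 *Smad* and *Smurf* genes 2 passed, *Smad4* (1.20), the shared partner SMAD, and *Smad5* (1.10), whose sign turned within NXT0143 (-0.13). *Smad1* (0.94) and *Smad7* (0.63), an inhibitory SMAD gene, did not pass. Of 4 co-receptor genes, the pseudoreceptor gene *Bambi* was higher in autopod (1.55), and *Tgfbr3* (-3.22) and *Rgmb* (-1.57) were higher in zeugopod.

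Of these lists, the BMP-responsive genes had the highest median difference. Of 9, 5 were higher in autopod by at least 1 and none in zeugopod, beside 2.83% and 6.26% of all genes. Among genes on in 25% or more of autopod or of zeugopod cells the shares were 6.06% and 13.4%. The 5, *Id1*, *Id2*, *Id3*, *Msx1* and *Msx2*, were already in the paper's own list of top autopod genes. The responsive list was chosen with earlier results of these data known, so this count is not a separate finding. The list median was 2.40. *Msx1* (4.95) was on in 46 of 76 autopod cells and 2 zeugopod cells, *Id2* differed by 4.42 and *Id1* by 3.83. These 3 exceeded 3.6 in both run comparisons. Over all cells the ligand genes among the members differed by 0.81 (*Bmp2*), 0.49 (*Bmp7*), 0.42 (*Gdf5*), -0.74 (*Bmp4*) and -0.71 (*Bmp5*). Within NXT0143 *Gdf5* differed by 2.54. Whether ligand levels bear on the responsive genes was not tested.

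Of 4 processing genes, *Pcsk6* was higher in autopod (1.47) and *Pcsk5* in zeugopod (-1.55), both encoding convertases that cut TGF-beta family precursors, with *Furin* at -0.69. *Pcsk6*, among the first 3 genes like *Nog* on the normalized scale, was on in 10 of 16 autopod *Nog* cells against 11 of 60 others. All 10 lay in NXT0072. *Pcsk6* was picked as like *Nog* over these same cells, so these counts are not separate support. Of 5 other limb signalling genes, *Wnt5a* (2.89) and *Gli3* (2.08) were higher in autopod, and *Ptch1* (0.78) was higher by less. Within NXT0143, the run with both tissues, several of these differences fell under 1: *Twsg1* (0.93), *Nbl1* (-0.77), *Bmpr2* (0.83), *Bambi* (0.90), *Smad4* (0.39), *Rgmb* (-0.44), *Pcsk6* (0.28) and *Pcsk5* (-0.63). Of the genes named here as past 1 over all cells, *Tgfbr3* (-2.39), *Msx1*, *Id1*, *Id2*, *Wnt5a* (2.45) and *Gli3* (2.68) still passed there.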

How the data were processed

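Single-cell RNA-seq libraries of sorted E12.5 forelimb cells were analysed from 2 tables. The authors mapped reads to mm10 (GRCm38) with Bowtie2 in local mode, counted reads per gene with HTSstation, and deposited raw counts for 225 cells with 92 spike-ins. They kept 199 cells on depth, genes detected and spike-in share, and 2 of these had no more than the stated 2000 genes in the deposited table. They also deposited a normalized signal for 10948 genes, scaled by spike-in size factors centred within each batch and divided by gene length. The paper does not say what a batch was. Of its values 99.96% were whole multiples of the floor of their gene, the value of a gene with 0 reads (tolerance 1e-06). No mapping was repeated, and the spike-in rows were left out.

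From the counts, CPM and shares of cells with at least 5 reads were computed with exact binomial (Clopper-Pearson) intervals. From the normalized signal, differences of mean log2(value + 1) were taken, and a difference of 1 was used as the fold. Fold counts have no test, since each tissue is 1 sample. Cells thinned to 500000 reads (seed 42) numbered 72 autopod and 119 zeugopod, with 4 of each tissue too shallow. Scripts (Python 3.11.15, numpy 2.4.6, pandas 2.3.3, scipy 1.17.1) were tested on simulated data. The text names all 8 members, the 3 genes most like each member, and from each pathway list up to 3 genes with the largest difference that keep its sign in both run comparisons. *Hoxd* genes, *Smad5*, *Fstl1* and *Gdf11* were added after their values were seen. Members, marker lists and pathway lists were chosen with earlier results of these data known. Gene positions are from GENCODE M21. Columns of samples not used numbered 0.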

Additional observations from a re-analysis of the deposited data

Results flagged for a closer look

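*Bmp2* reads appeared in the cells that the quality filter of the authors had left out, which enter no comparison. Of the 26 left-out cells 1 had at least 5 *Bmp2* reads, with 83 reads, and no other member reached 5 reads in any of them. *Bmp7* had 7 reads in 3 of these cells and *Gdf5* 1 read in 1 cell.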

How the results depend on the processing

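The count of members higher in autopod by at least 1 was 1 (*Nog*) with all cells, 0 with a pseudocount of 10 (*Nog* at 0.60), 2 within NXT0143 (*Bmp7* and *Gdf5*, with *Nog* at 0.59) and 2 without cells with *Xist* and Y-linked reads (*Nog* and *Bmp2*). The count higher in zeugopod was 0, and 1 on thinned CPM (*Bmp4*, -1.01), where the median of all genes was -0.13. Pairs with more sharing in autopod numbered 11, but 7 at 20 reads, 3 without cells with *Xist* and Y-linked reads, and 4 in NXT0143 alone. Without those cells, and also in NXT0143 alone, *Bmp5* and *Grem1* were on in 0% of autopod cells, so their pairs could not count. In zeugopod the pairs with more sharing numbered 14, but 7 in NXT0142 alone. The share of zeugopod ligand cells with an antagonist was 22.2%, but 12.1% at a normalized value of at least 5, a table that lacks *Grem1*, and 13.2% in NXT0142 alone. The cause was not tested. Of the alternative shares of cells with a member on, 9 lay outside the interval of the reported share and the rest within it. Of 30 marker shares recomputed after thinning or without the cells with *Xist* and Y-linked reads, both chosen after seeing the data, 30 did. With 25% of cells as a filter, 19.4% of genes differed by at least 1. No paired analysis was possible because the cell numbers in the labels only name cells, and no embryo is given. Shallow cells limit the calls of absence: a gene without reads may have been missed.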
